A study of Rattus norvegicus with 22 samples.

Results

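The rat counterparts of 8 genes whose variants cause human polycystic kidney or polycystic liver disease were followed in kidney RNA: Pkd1, Pkd2, Pkhd1, Ganab, Prkcsh, Dnajb11, Sec63 and Dzip1l. They were taken by name from the human diseases and mapped by Entrez identifier. Of the 8 genes, 7 were measured among the 17334 genes of the count and TPM tables, namely Pkd1 (Entrez 24650), Pkd2 (498328), Ganab (293721), Prkcsh (300445), Dnajb11 (360734), Sec63 (309858) and Dzip1l (315952). Pkhd1 (301287), the gene of fibrocystin, was not analysed here. All 7 measured genes passed the filter on low counts and were among the 12867 genes tested.

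The samples were left kidneys of 22 rats, all male and of the PKD/Mhm (Cy/+) strain, which has slowly progressing cystic kidneys, killed at 8 months of age. All rats, the untreated ones included, carried 1 copy of the Cy allele, a change in Anks6, and none of the 7 genes was altered by design. The groups were 6 untreated rats, 6 rats given human adipose-derived stromal cells (ASC) into the peritoneum (ASC i.p.), 6 given ASC into a vein (ASC i.v.) and 4 given conditioned medium (CM), with treatment once a month for 6 months. The labels of the CM rats name neither the cells nor the route, and the study describes ASC-derived CM. Healthy rats of the strain were not analysed here, so every level below is that of a cystic kidney.

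Polycystin-1, the product of Pkd1, is a large receptor-like membrane protein, and polycystin-2, the product of Pkd2, is a cation channel of the same complex; both act in the primary cilium of tubule cells. Both proteins, and fibrocystin, are made in the endoplasmic reticulum (ER), where Sec63 helps the translocon to insert them, glucosidase II trims their glycans with its catalytic subunit Ganab and its regulatory subunit Prkcsh, and the Hsp40 co-chaperone Dnajb11 helps Hspa5 to fold them. Dzip1l belongs to the transition zone at the base of the cilium, which controls the entry of membrane proteins.

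Total estimated counts ran from 12195682 to 14734772 per rat. The lowest count of a measured disease gene in any rat was 461 (Dzip1l), for which counting error alone is 4.66%, and the highest was 5890 (Ganab). The kidney label was checked against 10 proximal tubule markers, whose summed level lay between 1856 and 9374 CPM (counts scaled to the library total) in all 22 rats. The 5 urothelial markers summed to 221, 365 and 89.0 CPM in ASC i.v. rats 1, 3 and 5, to 15.4 CPM in ASC i.v. rat 4 and to at most 10.03 CPM in the other 18 rats, so the fold changes and list counts of the ASC i.v. group and the main correlations are also given without rats 1, 3 and 5. In bulk kidney, fewer cells of a type and less RNA per cell cannot be told apart.

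Most pairs of the 4 ER genes correlated from rat to rat, as described further on, and the 4 RefSeq promoters are shown for that reason. Each runs from 250 bases before to 50 bases after the annotated start in the GRCr8 assembly, 5′ to 3′ on the strand of the gene. The deposited values were made on rn6, so these coordinates belong to the sequences only. Capitals mark CCAAT and CCACG on either strand, the letters from which the ER stress response elements ERSE (CCAAT, 9 bases of any kind, CCACG) and ERSE-II (ATTGG, 1 base of any kind, CCACG) are built, and a match of either element therefore overlaps the capitals.
Dnajb11 promoter, chr11:91672751-91673050, minus strand: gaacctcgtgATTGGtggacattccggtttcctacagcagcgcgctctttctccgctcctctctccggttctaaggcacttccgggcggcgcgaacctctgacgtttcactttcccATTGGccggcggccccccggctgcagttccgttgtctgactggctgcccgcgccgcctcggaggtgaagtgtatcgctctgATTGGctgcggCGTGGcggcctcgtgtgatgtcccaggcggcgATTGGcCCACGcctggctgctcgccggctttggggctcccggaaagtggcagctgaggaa
Ganab promoter, chr1:215222763-215223062, plus strand: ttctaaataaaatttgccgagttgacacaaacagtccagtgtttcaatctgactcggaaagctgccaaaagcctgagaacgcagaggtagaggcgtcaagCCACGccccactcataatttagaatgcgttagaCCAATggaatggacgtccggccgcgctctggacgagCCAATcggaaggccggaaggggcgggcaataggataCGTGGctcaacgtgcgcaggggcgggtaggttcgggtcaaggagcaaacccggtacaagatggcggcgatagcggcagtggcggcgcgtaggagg
Sec63 promoter, chr20:47827041-47827340, plus strand: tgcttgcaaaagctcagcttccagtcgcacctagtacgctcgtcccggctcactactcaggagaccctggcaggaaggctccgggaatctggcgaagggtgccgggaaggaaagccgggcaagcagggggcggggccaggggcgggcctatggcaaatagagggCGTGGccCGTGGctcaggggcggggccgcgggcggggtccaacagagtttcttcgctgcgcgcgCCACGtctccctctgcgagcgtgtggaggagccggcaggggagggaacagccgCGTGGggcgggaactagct
Prkcsh promoter, chr8:28810703-28811002, plus strand: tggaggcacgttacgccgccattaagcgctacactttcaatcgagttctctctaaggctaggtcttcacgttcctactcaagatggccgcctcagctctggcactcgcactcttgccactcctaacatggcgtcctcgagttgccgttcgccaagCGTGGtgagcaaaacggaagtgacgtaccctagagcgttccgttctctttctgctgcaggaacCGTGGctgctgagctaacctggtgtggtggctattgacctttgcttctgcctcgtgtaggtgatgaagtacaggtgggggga

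CCAAT was present in 37.7% and CCACG in 32.5% of the 27457 rat promoters of this length. These shares were not matched for base composition. All promoters had a median GC content of 52.3% and 7 CG dinucleotides, while the 4 ER promoters had 55.3 to 68.7% and 19 to 30. The Dnajb11 promoter held CCAAT at 4 positions and CCACG at 2, and 1 pair of them formed an ERSE-II from position -10 to the start. ERSE-II was searched for after the Dnajb11 sequence had been read, and it was present in 0.0546% of all promoters. The Ganab promoter held 2 of each, Sec63 held 4 CCACG and no CCAAT, and Prkcsh held 2 CCACG and no CCAAT. Among the genes outside the ER group, Pkd1 held 1 of each, Pkd2 held 1 CCAAT and Dzip1l held neither. The longer ERSE, present in 0.0765% of all promoters, was found in none of the 7 windows. These matches describe the letters and nothing about binding, which was not measured.

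The levels of the genes were compared as TPM, which is scaled by transcript length. Prkcsh had the highest mean, at 235 TPM ± 8.17 (SD, n = 22), followed by Ganab at 137 ± 8.91, Dnajb11 at 101 ± 7.60, Pkd2 at 37.0 ± 5.004, Sec63 at 34.1 ± 2.73, Dzip1l at 16.3 ± 2.94 and Pkd1 at 9.30 ± 2.43. The ER genes of glycan trimming and folding were thus the most abundant, while Pkd1 was the lowest and stood between the 45.3rd and the 53.7th percentile of all genes within a rat. Every neighbouring pair in this order kept it in 22 of 22 rats, except Pkd2 and Sec63, where Pkd2 was higher in 16 of 22 rats and the median ratio was 1.11. Over the pooled rats, levels of Pkd2 and Sec63 are therefore not separated beyond their spread. The gap differed by group, and Pkd2 was the higher in every untreated rat. Mean TPM of Pkd2 and Sec63 was 40.8 and 34.3 in untreated and 36.7 and 33.9 in ASC i.p. rats. It was 33.4 and 33.9 in ASC i.v. rats, and 37.4 and 34.3 in CM rats.

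**Figure D1:**
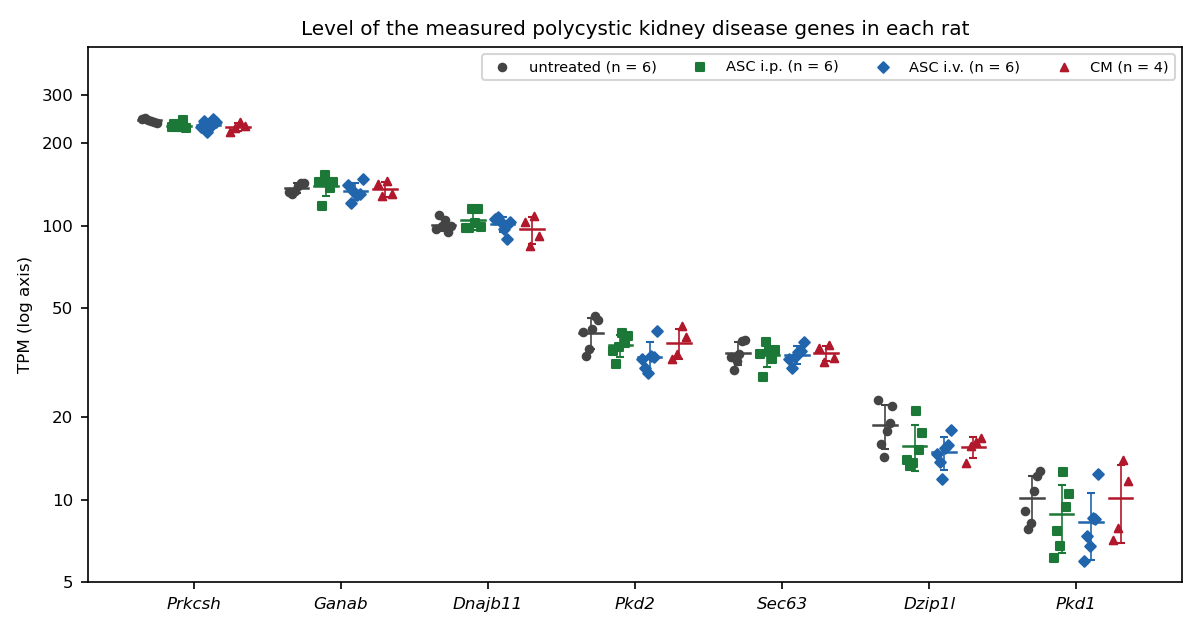
TPM of the 7 measured genes in each rat on a log axis, with a point per rat, a bar at the group mean and whiskers of 1 SD, for untreated (n = 6), ASC i.p. (n = 6), ASC i.v. (n = 6) and CM (n = 4) rats. Prkcsh sits highest near 235 TPM and Pkd1 lowest near 9.30 TPM, and the groups of every gene overlap.

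The first question of the study, whether a treatment moved gene expression away from that of untreated rats, was read for each gene from an edgeR quasi-likelihood test of all genes, with Benjamini-Hochberg adjustment over the 12867 genes. No disease gene passed an adjusted p of 0.05 under any treatment, against 0% of all genes in each of the 3 comparisons. At an unadjusted p of 0.05 edgeR had 0 of 7 genes after ASC i.p. (3.89% of all genes), 2 of 7 after ASC i.v. (8.81%) and 0 of 7 after CM (6.6%). DESeq2 also had 0 of 7 past its adjusted threshold in each comparison, where it had 0% of all genes with ASC i.p., 0.171% (22 genes) with ASC i.v. and 0.0389% (5 genes) with CM. The fitted value was below 0 in 3 of 7 genes in each comparison, where it was below 0 in 53.8% of all genes with ASC i.p., 52.5% with ASC i.v. and 50.9% with CM. The median log2 fold change of the 7 genes was 0.03 (ASC i.p.), 0.06 (ASC i.v.) and 0.01 (CM), beside -0.01, -0.01 and -0.00 over all genes. The 3 comparisons share the 6 untreated rats.

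Pkd2 had the largest standardized difference of the 7 genes. Its TPM was 33.5, 41.6 and 46.9 in the lowest, median and highest untreated rat, and 29.1, 33.0 and 41.5 in the ASC i.v. rats. It was 31.3, 36.8 and 40.6 in the ASC i.p. rats, and 32.8, 34.2, 43.1 and 39.5 in the 4 CM rats. In TPM all 6 ASC i.v. rats lay below the untreated median and 5 of 6 below the lowest untreated rat, yet the highest ASC i.v. rat kept the groups overlapping. On log2 CPM 4 of 6 lay below the lowest untreated rat. By edgeR the log2 fold change after ASC i.v. was -0.18 (SE 0.05), which is 11.4% lower, with an unadjusted p of 0.00123 and an adjusted p of 0.464. DESeq2 gave -0.17 with an adjusted p of 0.0809.

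The ASC i.v. value of Pkd2 kept its sign, with an unadjusted p under 0.05, when any single rat was left out (12 of 12 fits, -0.19 to -0.16). It was -0.16 without ASC i.v. rats 1, 3 and 5 (unadjusted edgeR p 0.0134, adjusted p 0.998). It was smaller, -0.08 (unadjusted edgeR p 0.0987, adjusted p 0.588), once a trend of counts on transcript length was removed from each rat, a correction described below. After ASC i.p. the log2 fold change of Pkd2 was -0.06 (SE 0.05, adjusted edgeR p 0.782) and after CM -0.05 (SE 0.05, adjusted edgeR p 0.877). The direct contrast of the routes, ASC i.v. against ASC i.p., was -0.12 (SE 0.05) for Pkd2 with an unadjusted edgeR p of 0.0201 and an adjusted p of 0.99998, where 2.18% of all genes were under 0.05 unadjusted and 0% adjusted, and where DESeq2 had 0 of 7 disease genes and 0.163% of all genes (21) past its adjusted threshold. The test of any difference among the 4 groups gave Pkd2 an unadjusted edgeR p of 0.00994 and an adjusted p of 0.912, and 0 of 7 disease genes passed it by edgeR or DESeq2, against 0.0855% of all genes adjusted and 4.11% unadjusted by edgeR, and 0.288% (37 genes) adjusted by DESeq2.

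Pkd1 differed far more between rats of a group than Pkd2. Its TPM was 7.83, 9.94 and 12.7 in the lowest, median and highest untreated rat, 6.12, 8.57 and 12.7 after ASC i.p., and 5.97, 7.98 and 12.4 in the ASC i.v. rats. The 4 CM rats had 7.15, 7.92, 14.02 and 11.7 TPM. High and low rats occurred in each group, and all groups overlapped. The log2 fold change was -0.10 (95% CI -0.41 to 0.21) with ASC i.p., -0.19 (-0.50 to 0.12) with ASC i.v. and 0.07 (-0.28 to 0.41) after CM, with adjusted edgeR p of 0.876, 0.588 and 0.9753. The ASC i.v. value was -0.06 without rats 1, 3 and 5, and -0.05 with the length trend removed (adjusted edgeR p 0.998 and 0.859). After CM the direction of Pkd1 turned with the unit and its normalization, being -0.02 by limma-trend on log2(TPM + 1). The edgeR counts were scaled between rats by TMM, while TPM was used without further scaling between rats. Pkd1 overlaps Tsc2 in the RefSeq annotation of GRCr8, and whether the counting used strand is not given in the sources used here.

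The SD of log2 CPM within groups was 0.27 for Pkd1, at the 58.4th percentile of all tested genes, and 0.06 for Pkd2, at the 0.684th percentile. Among the 500 genes nearest in level, the SD of Pkd1 stood at the 81.8th and that of Pkd2 at the 3.2nd percentile. Pkd2 was thus among the least variable genes of these kidneys. On the TPM scale the ratio of Pkd2 to Pkd1 had a median of 4.01 over the 22 rats and ran from 3.08 to 5.69, with group medians of 4.09 (untreated), 4.01 (ASC i.p.), 3.99 (ASC i.v.) and 3.84 (CM).

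Dzip1l, the transition zone gene, was lower than untreated by its fitted value in all 3 treated groups. Its TPM was 14.4, 18.5 and 23.2 in the lowest, median and highest untreated rat, 13.3, 14.6 and 21.1 after ASC i.p., 11.9, 15.1 and 17.9975 in the ASC i.v. rats, and 13.7, 15.7, 16.3 and 16.8 in the CM rats. All 6 ASC i.v. rats and all 4 CM rats, and 5 of 6 ASC i.p. rats, lay below the untreated median, while every group overlapped with the untreated one. The log2 fold change was -0.16 (SE 0.09) with ASC i.p., -0.22 (SE 0.09) with ASC i.v. and -0.19 (SE 0.10) after CM, with unadjusted edgeR p of 0.0804, 0.0216 and 0.0635 and adjusted p of 0.771, 0.523 and 0.711. The 3 values share their untreated rats. Without ASC i.v. rats 1, 3 and 5 the ASC i.v. value was -0.19 with an unadjusted edgeR p of 0.0929. The deposited counts of Dzip1l were not whole in any of the 22 rats, while those of the other 6 genes were whole, within a tolerance of 1e-06. Estimated counts can be fractional where reads match more than 1 feature, so its counts are less certain.

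Prkcsh, the regulatory subunit of glucosidase II, had the tightest TPM of all in untreated rats, 238, 243 and 247 as lowest, median and highest. It was 227, 229 and 243 TPM after ASC i.p., 220, 235 and 245 in the ASC i.v. rats, and 220, 227, 240 and 231 in the CM rats. On this scale 5 of 6 ASC i.p. rats, 3 of 6 ASC i.v. rats and 3 of 4 CM rats lay below the lowest untreated rat. The counts gave another picture, since the edgeR log2 fold change was 0.03 with ASC i.p., 0.06 with ASC i.v. and -0.02 after CM (adjusted edgeR p 0.921, 0.696 and 0.989), whereas limma-trend on log2(TPM + 1) gave -0.06, -0.05 and -0.08 (unadjusted p 0.130, 0.212 and 0.0872). The direction of Prkcsh after either ASC route thus turned with the unit and its normalization, and no version passed the adjusted threshold. In each comparison every measured gene had a lower value by limma-trend on log2(TPM + 1) than by edgeR. The shift was thus not particular to Prkcsh. Without ASC i.v. rats 1, 3 and 5 the edgeR value with ASC i.v. was 0.04.

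Ganab, the catalytic subunit, was 130, 137 and 144 TPM in the lowest, median and highest untreated rat, 118, 144 and 153 after ASC i.p. and 122, 131 and 149 after ASC i.v. The 4 CM rats had 142, 128, 146 and 130 TPM. The groups overlapped, and the ratio of Prkcsh to Ganab TPM stayed between 1.5002 and 1.99 in all 22 rats, with a median of 1.70. In the same order of groups, the log2 fold changes of Ganab were 0.12, 0.08 and 0.06 (SE 0.07, 0.07 and 0.08, adjusted edgeR p 0.771, 0.639 and 0.917). On log2(TPM + 1) limma-trend gave 0.03, -0.04 and -0.01. The direction of Ganab thus turned with the unit and its normalization for ASC i.v. and CM. Without ASC i.v. rats 1, 3 and 5 the ASC i.v. value of Ganab by edgeR was 0.01.

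Dnajb11, the co-chaperone, was 94.7, 99.6 and 109 TPM in the lowest, median and highest untreated rat, 98.4, 101 and 116 after ASC i.p., 90.0, 104 and 108 in the ASC i.v. rats, and 103, 84.5, 109 and 91.8 in the CM rats. Its log2 fold changes were 0.15, 0.12 and 0.01 (SE 0.09, 0.09 and 0.10, adjusted edgeR p 0.771, 0.581 and 0.997), against 0.05, 0.01 and -0.06 by limma-trend on log2(TPM + 1). Sec63, the translocon partner, was 29.9, 33.7 and 38.4 TPM in untreated rats, 28.1, 34.5 and 37.8 after ASC i.p., 30.3, 34.0 and 37.7 in the ASC i.v. rats, and 35.8, 31.9, 36.7 and 32.9 in the CM rats. Its log2 fold changes were 0.07, 0.10 and 0.08 (SE 0.06, 0.06 and 0.07, adjusted edgeR p 0.780, 0.537 and 0.865), against -0.02, -0.01 and 0.00 by limma-trend on log2(TPM + 1). The direction thus turned with the unit and its normalization for Dnajb11 after CM and for Sec63 after either ASC route. Without ASC i.v. rats 1, 3 and 5 the edgeR value with ASC i.v. was 0.11 for Dnajb11 and 0.05 for Sec63. The groups of both genes overlapped. Over the 3 comparisons and 7 genes, the 95% confidence intervals reached no lower than -0.50 and no higher than 0.41, both for Pkd1.

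**Figure D2:**
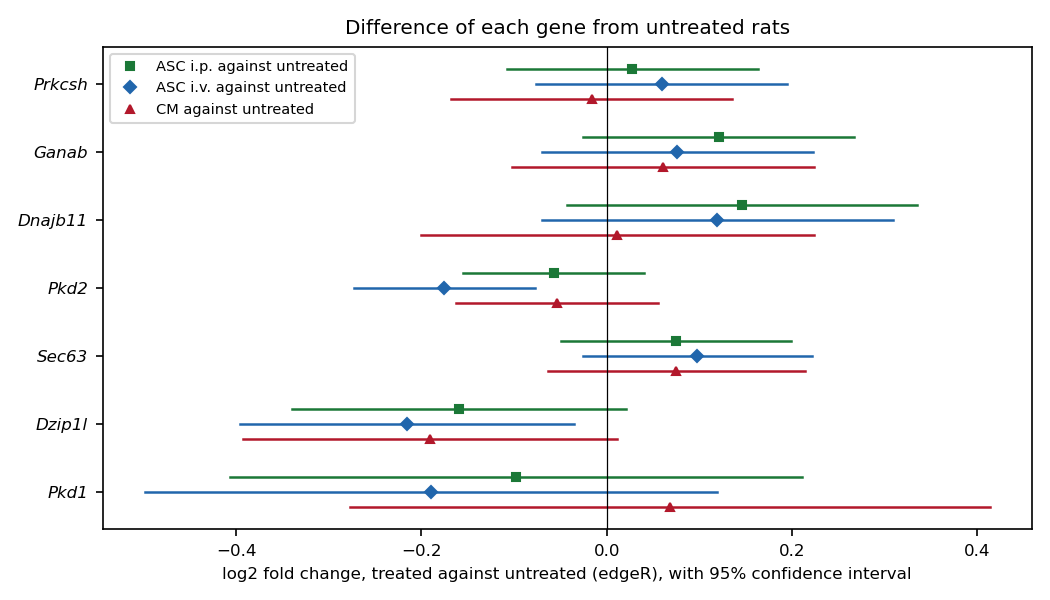
Log2 fold change of each gene (edgeR) against untreated rats in the 3 treated groups, with lines for the 95% confidence interval. The intervals of Pkd2 and Dzip1l after ASC i.v. lie below 0, while the other 19 include 0, and no value passed the adjusted threshold.

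The wider machinery around these genes was counted by lists written from general knowledge, with 3 values in a row given for ASC i.p. first, then ASC i.v., then CM. No gene of any list passed the adjusted edgeR threshold in any comparison. The shares to read the counts against are those of all genes, in that order 3.89%, 8.81% and 6.6% under an unadjusted edgeR p of 0.05 and 53.8%, 52.5% and 50.9% with a lower fitted value, with median log2 fold changes of -0.01, -0.01 and -0.00. The ER folding list holds N-glycan processing enzymes, lectins and a disulfide isomerase. In this list 11 genes were tested, and 4, 4 and 5 had a lower fitted value. The list had medians of 0.06, 0.04 and 0.01, and 1, 0 and 0 genes under an unadjusted edgeR p of 0.05. Its most abundant genes were the lectin chaperone Calr at 744 TPM, with log2 fold changes of 0.14, 0.13 and 0.07, and the disulfide isomerase Pdia3 at 535 TPM, with 0.06, 0.03 and -0.07. Edem1, which hands misfolded glycoproteins to degradation, had 0.17 after ASC i.p. (unadjusted edgeR p 0.0419), and the cargo receptor Lman1 had -0.19 after ASC i.v. and -0.20 after CM (0.0722 and 0.0856).

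The translocon list, with Hspa5 and its partners, had 16 tested genes, lower fitted values in 2, 2 and 7 of them, medians of 0.07, 0.08 and 0.00, and 1, 1 and 2 under an unadjusted edgeR p of 0.05. Sdf2l1, a partner of Hspa5 and the Hsp40 proteins, had log2 fold changes of 0.32 after ASC i.p. and 0.36 after CM (unadjusted edgeR p 0.00782 and 0.00734, adjusted 0.771 and 0.711). The signal peptidase subunit Spcs2 had 0.15 after ASC i.v. (unadjusted edgeR p 0.0410). Hspa5 and Hsp90b1, the ER members of the Hsp70 and Hsp90 families, were at 349.8 and 349.6 TPM and had 0.16, 0.13 and 0.16, and 0.16, 0.11 and 0.08. The N-glycan list had 15 tested genes, of which 0, 2 and 0 were under 0.05 unadjusted. All 15 had a higher fitted value after either ASC route, and 9 of 15 after CM, with medians of 0.08, 0.04 and 0.01, but without ASC i.v. rats 1, 3 and 5 the ASC i.v. count was 10 of 15. Its most abundant genes, the oligosaccharyltransferase subunits Dad1 (375 TPM) and Rpn1 (232 TPM), had 0.11, 0.15 and 0.01, and 0.08, 0.08 and -0.03. The mannosyltransferases Alg3 after ASC i.v. (0.16) and Alg1 after CM (0.21) had unadjusted edgeR p of 0.0305 and 0.138, and Alg3 had 0.13 after ASC i.p. (0.0654).

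The transition zone list, the surroundings of Dzip1l, had 15 tested genes with lower fitted values in 12, 10 and 13 of them, medians of -0.08, -0.06 and -0.08, and 2, 3 and 0 under an unadjusted edgeR p of 0.05. Tmem67, which encodes meckelin, had -0.24 with ASC i.p. and -0.31 with ASC i.v. (unadjusted edgeR p 0.0109 and 0.00169, adjusted 0.771 and 0.504), and B9d1 had -0.17 after CM (0.107). The most abundant genes of the list, Cby1 (55.0 TPM) and Tmem216 (42.6 TPM), had -0.07, 0.07 and 0.02, and -0.00, -0.01 and -0.08. In the list of ciliary transport 17 genes were tested, 9, 13 and 10 had a lower fitted value, the medians were -0.02, -0.04 and -0.03, and 0 were under 0.05 unadjusted by edgeR in each comparison. Its named genes were Arl3 (135 TPM), with 0.00, -0.01 and 0.05, Rab8a (113 TPM), with 0.13, 0.12 and 0.14, the dynein heavy chain Dync2h1, with -0.16 after ASC i.p. and -0.18 after CM, and the intraflagellar transport gene Ift88, with -0.16 after ASC i.v.

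Of the polycystin and fibrocystin relatives, 4 were in the tables and 2 were tested. Pkd2l1 and Pkdrej were at most at 0.254 and 0.0627 TPM and were not tested. Pkd2l2 was at 0.692 TPM ± 0.427 (SD, n = 6) in untreated rats, 1.53 ± 1.17 after ASC i.p., 1.68 ± 1.43 in the ASC i.v. rats and 2.17 ± 1.63 (n = 4) after CM, and its CM value of 1.74 (SE 0.79) had an unadjusted edgeR p of 0.0360 and an adjusted p of 0.711. Pkhd1l1 was at 0.0838 TPM. The list of partners and regulators had 11 tested genes, with 1, 4 and 2 under 0.05 unadjusted by edgeR, all on the lower side, while over the whole list 7, 7 and 5 genes had a lower and 4, 4 and 6 a higher fitted value, with medians of -0.03, -0.09 and 0.06. Id2, a binding partner of polycystin-2, was at 336 TPM and had -0.30 after ASC i.v. (unadjusted edgeR p 0.00228, adjusted 0.521), the channel gene Trpc1 had -0.27 after CM (0.00936, adjusted 0.711), and Tsc2, the neighbour that overlaps Pkd1, had -0.15 after ASC i.p. (0.0434, adjusted 0.771).

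Without ASC i.v. rats 1, 3 and 5 the ASC i.v. comparison had 12898 tested genes, of which 2.98% were under an unadjusted edgeR p of 0.05 and 50.3% had a lower fitted value, with a median of -0.00. By list, the genes under 0.05 unadjusted were then 0 of 11 for folding, 1 of 16 for the translocon, 1 of 15 for N-glycans, 2 of 15 for the transition zone, 1 of 17 for ciliary transport and 1 of 11 for partners and regulators. Lower fitted values were found in 4, 1, 5, 11, 15 and 11 of these genes in the same order, with medians of 0.03, 0.09, 0.05, -0.06, -0.08 and -0.18. Tmem67 had -0.40 (unadjusted edgeR p 0.000767), Alg3 0.19 (0.0449), Id2 -0.19 (0.0926) and Spcs2 0.13 (0.131), and all adjusted p were 0.998.

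Across rats the 7 genes fell into opposed sets. Pearson correlations of log2 CPM over the 22 rats were computed for all 21 pairs, with permutation p adjusted over them. Of these pairs 16 passed 0.05, 7 positive and 9 negative. The share of passing pairs among all tested genes was not computed, so the count is not shown to be particular to these genes. All 6 pairs of the ER genes were positive, and 5 of them passed. The exception was Prkcsh with Sec63, at r = 0.36 (permutation adjusted p 0.105). Within the untreated rats r was -0.18 for Prkcsh with Sec63 and -0.04 for Dnajb11 with Sec63, while the other ER pairs were positive. Ganab and Sec63 had r = 0.86 (rho 0.66, permutation p 1e-05, the smallest that 100000 permutations can give, adjusted p 0.00021), and r was 0.81 without the 2 rats farthest from the median of Ganab. Ganab and Dnajb11 had r = 0.77 (rho 0.81, permutation adjusted p 0.00028, r = 0.72 without 2 rats).

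Pkd1 and Prkcsh ran in opposite directions, with r = -0.80 (rho -0.74, permutation adjusted p 0.00021, r = -0.75 without 2 rats). The polycystin pair, Pkd1 and Pkd2, had r = 0.50 (rho 0.58, permutation p 0.0179, adjusted p 0.0271, r = 0.46 without 2 rats). Within groups of 6 the r of Pkd1 with Pkd2 was 0.85 in untreated, 0.24 in ASC i.p. and 0.11 in ASC i.v. rats, and CM had too few rats for a value. With group means removed, 12 of 21 pairs passed and no pair changed its sign. Without ASC i.v. rats 1, 3 and 5, over 19 rats, r was 0.87 for Ganab with Sec63, 0.74 for Ganab with Dnajb11, -0.81 for Pkd1 with Prkcsh and 0.49 for Pkd1 with Pkd2.

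These correlations moved with a property of each whole library. For each rat the length tilt was defined as the slope, over genes, of the deviation in log2 CPM on log2 relative transcript length, and it ran from -0.08 to 0.08 log2 CPM per doubling of length. Pkd1 was longer than 99.8% of all genes tested, Sec63 than 95.2%, Pkd2 than 91.5%, Ganab than 84.0%, Dzip1l than 80.6%, Prkcsh than 45.1% and Dnajb11 than 41.7%. All 7 genes correlated with the tilt: Prkcsh with r = -0.92 (rho -0.87, r = -0.91 without 2 rats), Pkd1 with 0.81 (rho 0.76, 0.78 without 2), Pkd2 with 0.75 (rho 0.78, 0.70 without 2), Dnajb11 with -0.70 (rho -0.71, -0.69 without 2), Ganab with -0.56 (rho -0.58, -0.50 without 2), Dzip1l with 0.55 (rho 0.59, 0.67 without 2) and Sec63 with -0.51 (rho -0.50, -0.48 without 2). The permutation adjusted p over the 77 relations of this family ran from 0.000385 to 0.0364. The share of all tested genes that correlate with the tilt, or with the cell type markers below, was not computed. Sec63 and Ganab, though longer than most genes, had a negative r with the tilt. The median tilt was 0.04 in untreated, -0.01 in ASC i.p., -0.03 in ASC i.v. and 0.02 in CM rats, and the groups overlapped.

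**Figure D3:**
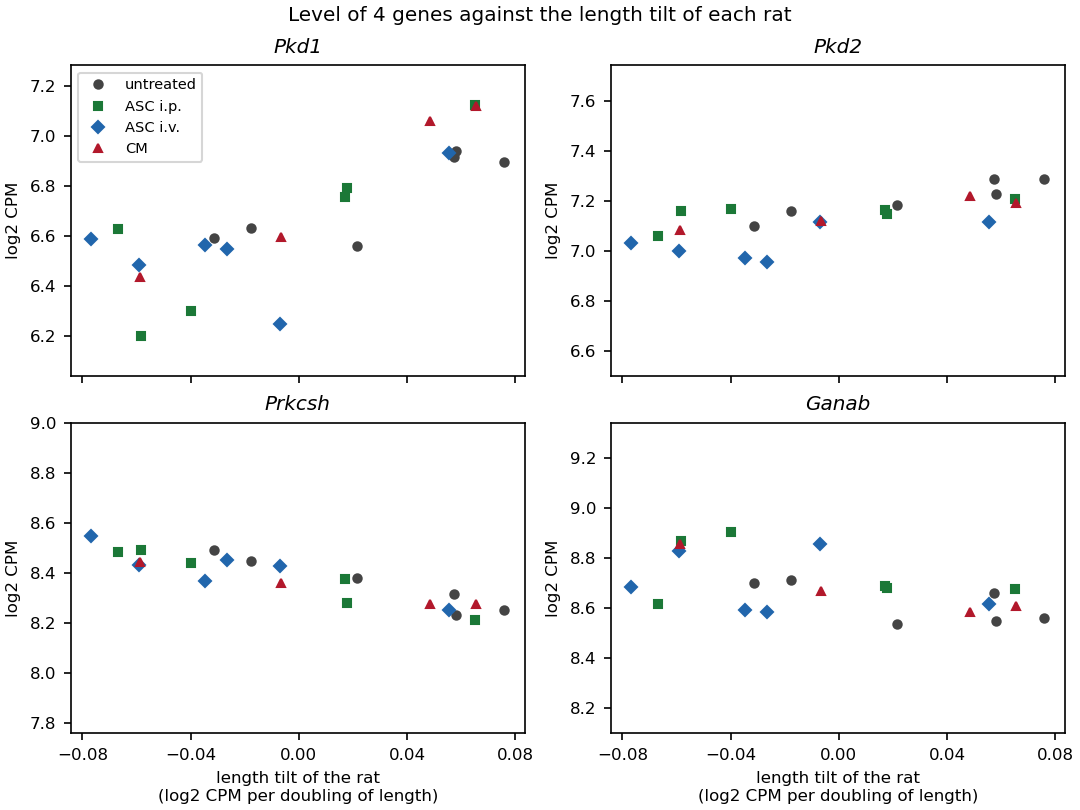
Log2 CPM of Pkd1, Pkd2, Prkcsh and Ganab against the length tilt of each rat (slope of log2 CPM deviation per doubling of transcript length), with a point per rat and the same height of axis in each panel. Pkd1 (r = 0.81) and Pkd2 (r = 0.75) are higher in rats of high tilt and Prkcsh (r = -0.92) is lower.

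With the trend on length removed from each rat, 9 of 21 pairs passed by permutation, and 6 changed their sign against the uncorrected values. The 6 ER pairs were then all positive and past the threshold, from r = 0.72 to 0.95, the highest being Ganab with Sec63. Pkd1 and Pkd2 turned from 0.50 to -0.36 (permutation adjusted p 0.145), Pkd2 and Ganab from -0.17 to 0.56 (0.0153), and Pkd2 and Prkcsh from -0.60 to 0.44 (0.0719). The ER pairs were thus positive under both scales, while the relation of the polycystins was not. The corrected ER values still ran against the tilt, with r = -0.85 for Sec63, -0.78 for Ganab, -0.86 for Prkcsh and -0.65 for Dnajb11. For Pkd1, Pkd2 and Dzip1l it was 0.36, -0.26 and 0.19. The correction thus did not free the ER genes from the tilt, and its part in their corrected correlations was not tested.

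**Figure D4:**
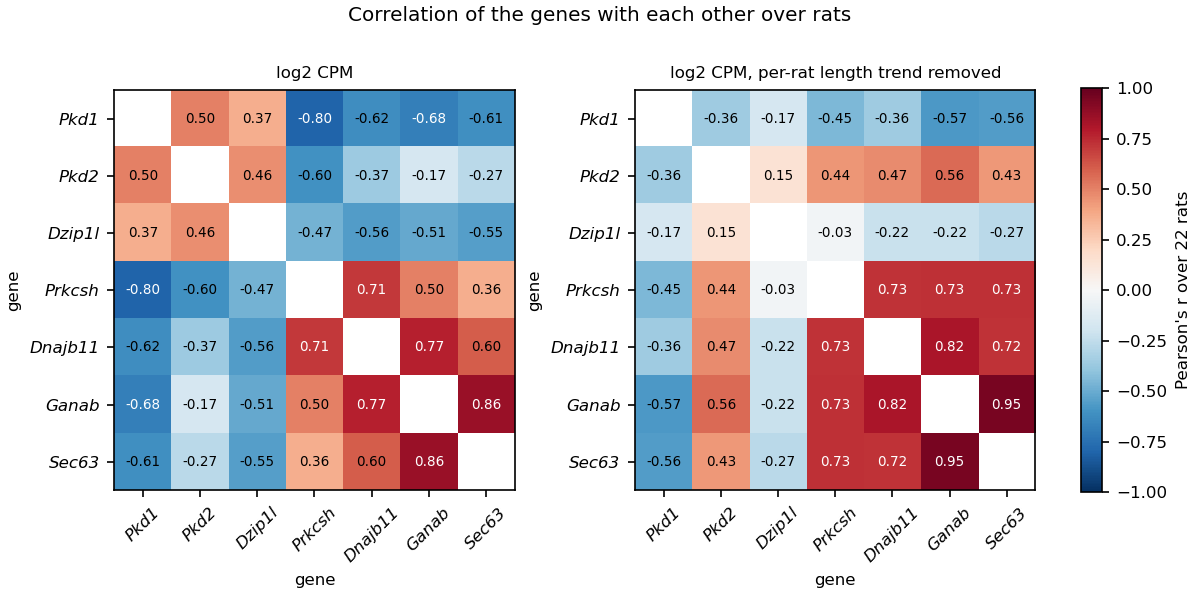
Pearson's r between the 7 genes over 22 rats, from log2 CPM (left) and after the trend on transcript length was removed from each rat (right), with red for positive and blue for negative values. The block of the 4 ER genes is positive in both panels, and Pkd1 with Pkd2 is 0.50 on the left and -0.36 on the right.

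Cell type markers moved with the genes as well, and 35 of the 77 relations to markers or tilt passed an adjusted permutation p of 0.05. Over all rats Pkd1 was higher in those with more RNA of podocyte (r = 0.70), endothelium (0.71), fibroblast and myofibroblast (0.71) and leukocyte markers (0.63). Within the untreated rats the values in that order were 0.79, 0.28, 0.25 and -0.08. They were 0.85, 0.87, 0.78 and 0.59 within ASC i.p. rats, and 0.81, 0.64, 0.62 and 0.85 within ASC i.v. rats. Only the podocyte relation of Pkd1 was thus as high in untreated rats as over all rats. Ganab and Sec63 were higher in rats with more proximal tubule markers (r = 0.72 and 0.74) and lower in those with more fibroblast and myofibroblast markers (-0.77 and -0.74). Pkd2 followed podocyte markers (0.68) and ran against the 3 adipocyte markers (-0.72), whose sum was 16.5 to 43.6 CPM. The permutation adjusted p of these 10 relations ran from 0.00115 to 0.00482, their rho from 0.54 to 0.75 in size, and their r without the 2 farthest rats from 0.53 to 0.78 in size. Without ASC i.v. rats 1, 3 and 5 the r of Pkd2 was 0.58 with podocyte and -0.71 with adipocyte markers, and that of Pkd1 was 0.66 with podocyte markers. Over rats the tilt itself had r = 0.68 with podocyte, 0.65 with endothelium and -0.67 with adipocyte markers.

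The summed level of the 5 podocyte markers was lower in ASC i.v. than in untreated rats, with medians of 264 (167 to 585) and 468 (368 to 730) CPM, the direction that Pkd2 took. The low ASC i.v. rats were rats 1, 3 and 5, at 189, 167 and 202 CPM, while rats 2, 4 and 6 had 441, 327 and 585 CPM, a median of 441. Pkd2 was still at -0.16 without rats 1, 3 and 5. The podocyte sum was 392 (302 to 595) CPM after ASC i.p. and 296 (165 to 658) CPM after CM. None of the 5 was at 0 in any group as a whole. Markers of the distal convoluted and connecting tubule, with medians of 1880 (793 to 2875) CPM in ASC i.v. and 2691 (2434 to 3831) CPM in untreated rats, and of endothelium, with 276 (143 to 410) and 375 (325 to 423) CPM, were likewise lower in ASC i.v. rats. Their r with Pkd2 was 0.54 (rho 0.54, permutation adjusted p 0.0250, 0.40 without the 2 farthest rats) and 0.53 (rho 0.58, permutation adjusted p 0.0275, 0.47 without 2). Without rats 1, 3 and 5 the ASC i.v. medians were 2799 and 410 CPM, and r was 0.43 and 0.39. The distal tubule and endothelium medians were 2381 and 327 CPM after ASC i.p., and 1472 and 288 CPM after CM. The log2 fold change of Pkd2 in those groups was -0.06 and -0.05. Low values of these markers were thus not particular to ASC i.v. rats. The part of podocyte, distal tubule or endothelial RNA in the Pkd2 values was not tested. With the length trend removed, r with podocyte markers was 0.01 for Pkd2 and 0.57 for Pkd1. That of Pkd2 was then 0.01 with distal tubule, -0.14 with endothelium and -0.10 with adipocyte markers.

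**Figure D5:**
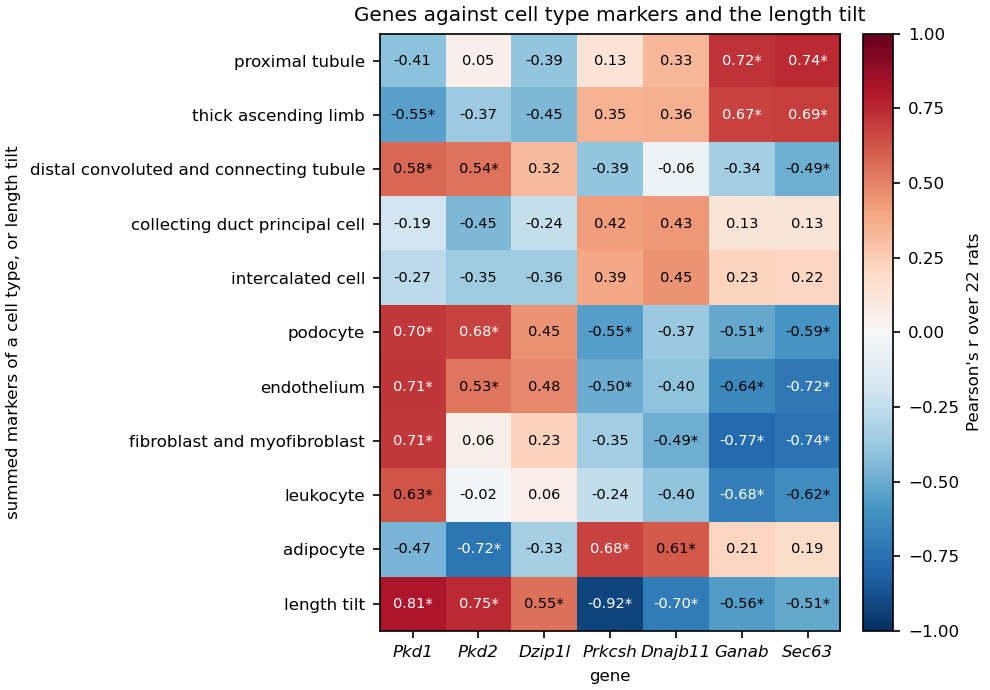
Pearson's r over 22 rats of each gene's log2 CPM with the summed level of the markers of 10 cell types and with the length tilt; an asterisk marks a permutation p under 0.05 after adjustment over 77 relations. Pkd1 is positive with podocyte, endothelium and fibroblast markers, where Ganab and Sec63 are negative.

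For each disease gene the 3 genes most like it over the 22 rats were listed by Spearman's rho of log2 CPM, among 12866 other genes. Pkd1 was closest to Gba2, a glucosylceramidase (rho 0.96), F8, the coagulation factor (0.93), and the purinergic receptor P2rx7 (0.93), and rho stayed at 0.87, 0.81 and 0.78 with the length trend removed. Pkd2 was closest to Ctif (0.87), Caprin1 (0.87) and Lgalsl (0.86), which dropped to 0.23, 0.33 and 0.51 with the length trend removed. The likeness of Pkd1 to its nearest genes thus changed less with that correction than the likeness of Pkd2 to its own.

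Ganab was closest to Zbed5 (0.89), the ATP synthase subunit Atp5f1c (0.89) and Itfg1 (0.88), and Sec63 to Ugp2, which makes UDP-glucose (0.92), Abhd3 (0.88) and Chp1 (0.88). Prkcsh was closest to the proteasome subunit Psmb6 (0.93), Rpl22l1 (0.93) and the cyclophilin Ppia (0.92). Dnajb11 was closest to Rnasek (0.90), the complex I subunit Ndufb5 (0.86) and Calr (0.86), and Calr is a chaperone of the same compartment. Among the genes most like Dnajb11, Ganab stood 28th, Prkcsh 463rd and Sec63 1770th. Sec63 stood 3317th among those most like Prkcsh. Dzip1l was closest to Rps6ka2 (0.78), Rpgrip1l, another transition zone gene (0.77), and Rcbtb1 (0.76), and rho with Rpgrip1l was 0.77 with the length trend removed as well. No gene reached a rho of 0.8 with Dzip1l, while 286 did with Pkd1, 274 with Prkcsh, 86 with Sec63, 84 with Ganab, 57 with Pkd2 and 44 with Dnajb11. Pkd2 ranked 2154th among the genes most like Pkd1.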

How the data were processed

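Total RNA of the left kidney was sequenced by the authors on the BGISEQ-500. They deposited an estimated count per rat Entrez gene without normalization, and a TPM value, scaled by transcript length and total by the authors. The submitters' processing notes name Trim Galore 0.6.4, kallisto 0.4.6 and rn6, and the paper names a human transcript package. Strand handling is not given in the sources used here. Groups were taken from the labels, and the rats are separate animals.

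Estimated counts, 14.1% of them not whole, were rounded, and a model over the 4 groups was fitted with edgeR 4.0.16 (R 4.3.3, TMM, filterByExpr) and read by its quasi-likelihood F test, with Benjamini-Hochberg adjustment over 12867 genes and a threshold of 0.05. Symbols came from the RefSeq table of GRCr8 (17179 of 17334 matched), and promoters and neighbouring genes from the same assembly. Log2 CPM used a prior count of 2. Relative length was the ratio of deposited count to deposited TPM over values of at least 5 counts, and the length trend was removed as a spline of 3 degrees of freedom per rat. Correlations used 100000 permutations, two-sided. The script was tested on simulated data.

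The members, lists and tests were chosen with earlier results of these data known. The genes named were the members, the 3 genes most like each member, and in each list the 2 of highest mean TPM and, per comparison, the one of smallest unadjusted p. A gene that this rule names is not reported here.

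As alternatives, RLE size factors and DESeq2 1.42.0 were used, the filter was dropped or set to 10 counts in every rat, the fit was limited to the 2 groups compared, and others took 1 surrogate variable (sva 3.50.0), proximal tubule markers as a covariate, the length trend removed, limma-trend (limma 3.58.1) on log2(TPM + 1), on log2(TPM + 0.1) or on genes with a mean of at least 1 TPM, and each rat left out. The fit and correlations without ASC i.v. rats 1, 3 and 5 were added after seeing the data.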

Additional observations from a re-analysis of the deposited data

Results flagged for a closer look

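Within the groups, 28 gene and group combinations were checked for a rat far from the others, and 1 passed Dixon's 95% criterion, which chance passes in about 1 in 20 groups. It was Dzip1l in ASC i.v. rat 3, at 5.23 log2 CPM where the other 5 rats of the group lay between 5.41 and 5.48. Its TPM was 11.9, against 13.7 to 17.9975 in the others. The same rat had the highest summed urothelial markers, 365 CPM, and whether the values are related was not tested.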

How the results depend on the processing

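No disease gene passed the adjusted threshold under any alternative or with any rat left out (0 to 0 in each comparison with untreated rats), nor by DESeq2 or RLE size factors in the contrast of the routes and the test over 4 groups. Over all genes, edgeR called 0 in each comparison with untreated rats, while DESeq2 called 22 after ASC i.v. and 5 after CM, and the fit of only the 2 groups called 1 after CM. With 1 rat left out the count after ASC i.v. ran from 0 to 14, being 11 without ASC i.v. rat 2 and 14 without ASC i.v. rat 6, and stayed at 0 in the other comparisons. The cause was not tested.

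Of 231 fold changes of the disease genes under alternatives that kept all rats, 34 changed sign, and of 238 with a rat left out, 11 did. None of these was past the threshold, and the largest main value among them was 0.10 in size. The unadjusted p of Dzip1l after ASC i.v. stayed under 0.05 in 9 of 11 such alternatives and in 10 of 12 fits with a rat left out. With 1 surrogate variable in the fit, Pkd1 after CM was at 0.23 (unadjusted edgeR p 0.0363, adjusted p 0.675). In that fit 904 of 12867 genes were under 0.05 unadjusted after CM. After removal of the length trend Sec63 after ASC i.v. was the 1 disease gene with an unadjusted edgeR p under 0.05, at 0.20. Its adjusted edgeR p was 0.586, and 1010 of 12867 genes were under 0.05 unadjusted in that comparison.

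The count of correlated pairs was 16, 16 with a prior count of 0.5, 12 with group means removed and 9 with the length trend removed. That removal turned Pkd1 with Pkd2 to -0.36, Pkd2 with Ganab to 0.56 and Pkd2 with Prkcsh to 0.44. The order of levels by the median was that by the mean for all 7 genes. The family of pairs was planned for 8 genes and held 21 with the 7 measured.

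No paired analysis was possible because rats of different groups are different animals and share no replicate number in the labels. At 461 counts or more per gene and rat, counting error was at most 4.66%, so the spread between 4 to 6 rats limited the comparisons more than depth.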
